A study of Homo sapiens with 5 samples.

Results

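Clones 2 and 3 of CP70 cells that stably overexpress DDB2 were set against the remaining clones of the same experiment, namely DDB2 clone 1 and the empty-vector clones 1 and 3, to describe which transcripts DDB2 clones 2 and 3 shared and DDB2 clone 1 lacked. The split of the arrays into 2 and 3 was chosen with values of these arrays in view, so that it is a description and was not tested. A gene was counted as higher when the lower of its values in DDB2 clones 2 and 3 exceeded the highest value of the other 3 clones by at least 1 on the log2 scale, which is 2-fold, and as lower in the mirror case. This distance is called the gap, and it uses every array and no variance. Of 15396 genes tested, 78 were higher (0.507%) and 36 were lower (0.234%) in DDB2 clones 2 and 3, and these 114 genes are described here.

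CP70 is a cisplatin-resistant subline of the human ovarian cancer cell line A2780. The DDB2 clones carry the plasmid pcDNA3.1-His-DDB2 and the vector clones were transfected with empty vector, all in the CP70 background and without further treatment. Each of the 5 clones is a separate clonal line measured on a single GeneChip Human Transcriptome Array, so that clonal differences, culture differences and array differences cannot be told apart, and no error within a clone can be given. The sample labels do not tie the DDB2 arrays to the study's clones 1B, 3H and 4H, and the titles and source names number one vector clone differently, as 3 and as 2. Values are the deposited RMA values on the log2 scale, in which background correction, normalization and the summary of the probes of each transcript cluster were made by the authors.

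DDB2 is the damage-recognition subunit of the UV-DDB complex, which binds ultraviolet lesions in DNA and recruits the CUL4A ubiquitin ligase, and it has also been described as a regulator of transcription. A stable transfectant is grown from a small number of cells after drug selection. DDB2 itself read 8.997 and 9.14 in DDB2 clones 2 and 3, against 9.87 in DDB2 clone 1 and 7.84 and 7.25 in vector clones 1 and 3. All DDB2 clones were thus above both vector clones, and DDB2 clones 2 and 3 lay below DDB2 clone 1. The rule of the gap places DDB2 clone 1 with the vector clones. By that rule none of the 114 genes could follow the order of the DDB2 values, and this is not a result.

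The promoters of the 2 genes that stood furthest apart on each side among those with a promoter in the RefSeq table are shown first, as the start sites of the transcripts that separated the clones most. Each run is 300 bases, from 250 bases before to 50 bases after the annotated start, 5′ to 3′ on the strand of the gene, from RefSeq on GRCh38.p14, with CG pairs in capitals. HHLA2 and ASB5 were higher in DDB2 clones 2 and 3, and UCHL1 and CCR1 were lower. HHLA2 lies at chr3:108296298-108296597 on the plus strand (the first of 3 starts in the table), ASB5 at chr4:176269173-176269472 on the minus strand, UCHL1 at chr4:41256678-41256977 on the plus strand and CCR1 at chr3:46208264-46208563 on the minus strand.
HHLA2: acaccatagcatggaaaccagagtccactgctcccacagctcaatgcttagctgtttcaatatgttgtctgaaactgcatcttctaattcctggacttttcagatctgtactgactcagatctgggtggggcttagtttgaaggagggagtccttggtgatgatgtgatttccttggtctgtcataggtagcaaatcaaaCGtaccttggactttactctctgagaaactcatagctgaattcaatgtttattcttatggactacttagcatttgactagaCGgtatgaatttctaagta
ASB5: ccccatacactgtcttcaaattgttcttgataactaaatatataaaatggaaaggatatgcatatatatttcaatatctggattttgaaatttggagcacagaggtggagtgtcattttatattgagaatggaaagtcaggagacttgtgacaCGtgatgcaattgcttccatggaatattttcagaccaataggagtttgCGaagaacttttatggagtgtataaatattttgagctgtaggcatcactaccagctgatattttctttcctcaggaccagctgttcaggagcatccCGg
UCHL1: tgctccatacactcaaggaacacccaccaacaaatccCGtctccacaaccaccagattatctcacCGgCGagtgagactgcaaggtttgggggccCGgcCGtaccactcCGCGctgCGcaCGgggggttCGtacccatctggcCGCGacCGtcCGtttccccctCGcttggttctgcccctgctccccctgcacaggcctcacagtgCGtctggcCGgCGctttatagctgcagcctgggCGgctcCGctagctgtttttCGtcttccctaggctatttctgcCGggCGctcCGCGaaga
CCR1: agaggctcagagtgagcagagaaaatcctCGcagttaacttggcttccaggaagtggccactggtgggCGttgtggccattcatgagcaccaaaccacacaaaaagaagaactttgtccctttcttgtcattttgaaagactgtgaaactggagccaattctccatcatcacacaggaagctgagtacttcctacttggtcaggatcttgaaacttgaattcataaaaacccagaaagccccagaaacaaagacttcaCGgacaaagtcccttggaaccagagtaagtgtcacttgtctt
The HHLA2 promoter held 2 CG pairs and those of ASB5 and CCR1 held 3 each, while the UCHL1 promoter held 25. Over all 35093 promoters of the table the median was 14 pairs. As few pairs as in HHLA2, or fewer, were found in 18.2% of all promoters, and as few as in ASB5 and CCR1 in 24.5%. As many as in UCHL1, or more, were found in 32.0%. A promoter was found for 79 of the 114 genes (69.3%), which is too few for a comparison over all of them, and CG pairs say nothing here about methylation, which was not measured.

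HHLA2, a B7-family protein of the cell surface that regulates T cells, had the largest gap upward (transcript cluster TC03000545.hg.1 on chromosome 3). It read 8.67 and 9.06 in DDB2 clones 2 and 3, against 3.01 in DDB2 clone 1 and 3.14 and 3.01 in vector clones 1 and 3. The means were 8.87 ± 0.278 (SD, n = 2 arrays) in DDB2 clones 2 and 3 and 3.05 ± 0.0720 (SD, n = 3 arrays) in the other clones, a 56.3-fold ratio. The other B7-family genes with a value did not share this pattern, since CD276 read 7.01 and 7.62 in DDB2 clones 2 and 3 and between 7.16 and 7.96 in the other clones, and ICOSLG read 5.48 and 5.42 and between 5.16 and 5.53.

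UCHL1, a deubiquitinating enzyme that is abundant in neurons, had the largest gap downward (transcript cluster TC04000253.hg.1 on chromosome 4). Its values were 4.22 and 4.499 in DDB2 clones 2 and 3, against 9.55 in DDB2 clone 1 and 8.997 and 8.95 in vector clones 1 and 3. The means of 4.36 ± 0.199 (SD, n = 2 arrays) and 9.17 ± 0.332 (SD, n = 3 arrays) differ by a ratio of 28.02, higher in the other clones. UCHL3 and UCHL5, enzymes of the same family, showed no gap, with 8.17 and 7.11 and with 7.83 and 7.63 in DDB2 clones 2 and 3 and ranges of 7.37 to 8.27 and 7.59 to 8.14 in the other clones.

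The plot of the 14 genes with the largest gap in each direction shows DDB2 clones 2 and 3 nearer to each other than to any other clone in every row. The rows were chosen by the widest gap from the other clones, so that this closeness comes with the choice. DDB2 clones 2 and 3 were at most 1.16 apart (TMSB4XP8, downward) and 0.715 apart (MYH15, upward). Vector clone 1 was often the nearest to them among the higher genes.

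**Figure D1:**
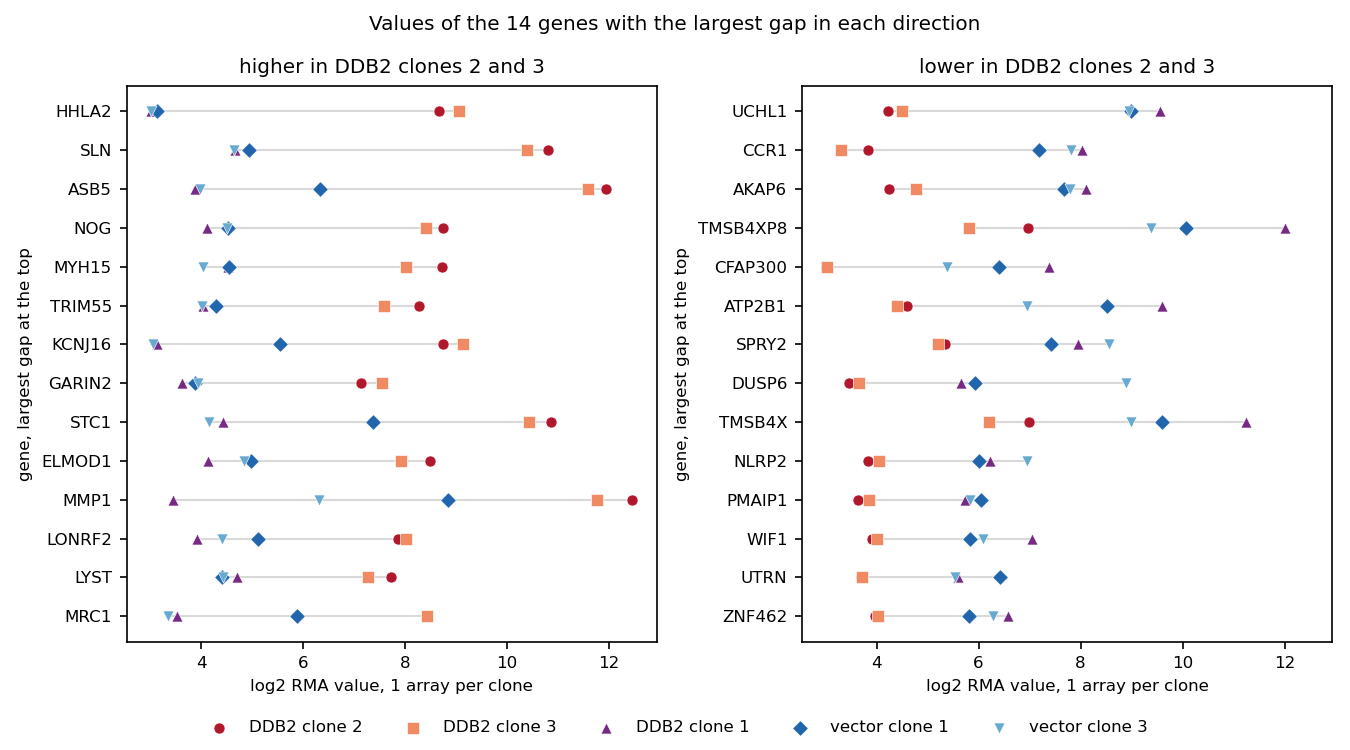
Log2 RMA values (horizontal axis) of the 14 genes with the largest gap upward (left panel) and downward (right panel), with 1 point per clone and a grey line over the range of the 5 arrays. DDB2 clones 2 and 3 lie apart from DDB2 clone 1 and both vector clones by 5.54 for HHLA2 and by 4.45 for UCHL1, the largest gaps of the panels.

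Among the higher genes, the median gap was 1.57 and the median difference between the mean of DDB2 clones 2 and 3 and the mean of the other clones was 2.48, with a range of 1.19 to 7.05. The gap reached 2 in 26 genes (0.169% of all genes) and 3 in 9 (0.0585%). Among the lower genes, the median gap was 1.47 and the median difference was -2.30, with a range of -4.81 to -1.19, and the gap reached 2 in 8 genes (0.052%) and 3 in 2 (0.013%). Over all genes the median difference was -0.02. Genes had to exceed 4.48, the median of the whole table, on 2 arrays to be tested. In 12 of the higher genes all other clones were under that level, and in 46 at least 1 of them was. In 17 of the lower genes both DDB2 clones 2 and 3 were under that level, so that the size of these differences depends on how low values are estimated.

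At the threshold, ATP2B4 (gap of 1.02) and ANKRD1 (1.00) were the last higher genes counted, while FBN1 (0.995) and SRGAP1 (0.994) fell just short of it. RPS20P22 (1.03) and MARCKS (1.00) were the last lower genes counted, and NFIA (0.991) and SHISA3 (0.939) fell short. If any separation of DDB2 clones 2 and 3 from the other clones is counted, whatever its size, 1266 genes lay above (8.22%) and 1594 lay below (10.4%), and of transcript clusters 2866 (8.39%) and 3330 (9.75%) did, so that the higher genes outnumbered the lower ones only among the wide gaps. Annotated protein-coding genes made up 72 of the 78 higher and 31 of the 36 lower genes. At the level of transcript clusters, 152 of 34141 were higher (0.445%) and 61 were lower (0.179%), of which 73 and 25 carry no gene symbol. With 1 array left out, the counts of genes grew by more than 1.5 times in some cases. They reached 123 higher and 57 lower without DDB2 clone 2, 125 higher without vector clone 1 and 75 lower without vector clone 3. Leaving out an array can only keep or widen the gap of a transcript cluster, so that the rule itself favours such a rise.

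DDB2 clones 2 and 3 were not the most similar pair of arrays. Over all 34141 transcript clusters, 1007 (2.95%) differed by more than 1 between DDB2 clones 2 and 3, whereas 653 (1.91%) did so between DDB2 clone 2 and vector clone 1 and 844 (2.47%) between DDB2 clone 1 and vector clone 1. DDB2 clone 3 was furthest from DDB2 clone 1, with 2418 transcript clusters (7.08%) more than 1 apart. Across transcript clusters, which are not replicates, Pearson's r was 0.965 for DDB2 clones 2 and 3, 0.969 for DDB2 clone 2 and vector clone 1, and 0.914 for DDB2 clones 3 and 1. DDB2 clone 3 and vector clone 1 differed in 1529 (4.48%, r of 0.945), so that DDB2 clone 2 was closer to vector clone 1 than to DDB2 clone 3, while DDB2 clone 3 was closest to DDB2 clone 2.

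**Figure D2:**
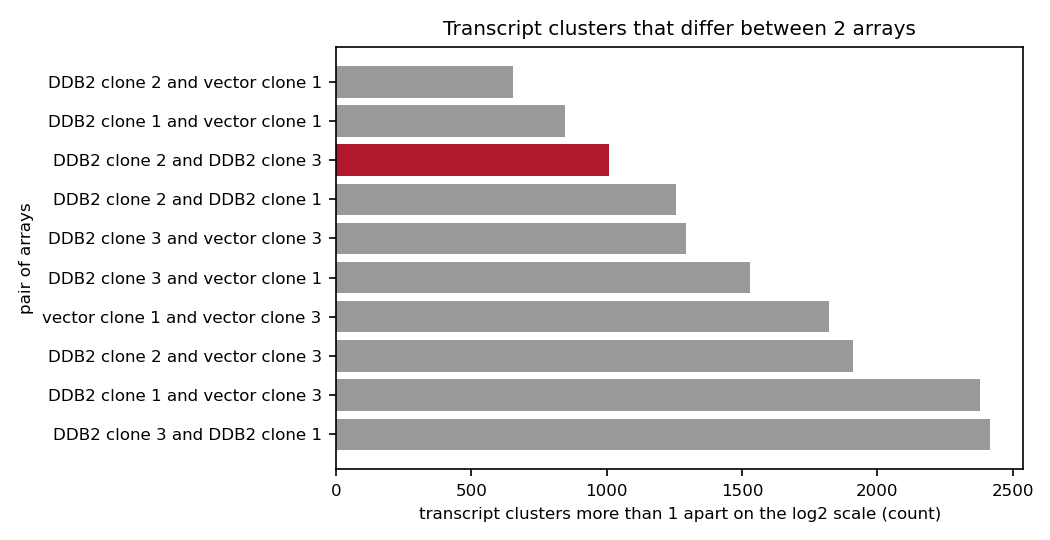
Number of transcript clusters that differed by more than 1 on the log2 scale (horizontal axis) for each of the 10 pairs of arrays, out of 34141, with the pair of DDB2 clones 2 and 3 in red. That pair differed in 1007, more than DDB2 clone 2 and vector clone 1 (653) and fewer than DDB2 clones 3 and 1 (2418).

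DDB2 clones 2 and 3 were further apart in the higher genes than in the median gene of the table. The absolute difference between them had a median of 0.326 in the higher genes and 0.161 in the lower genes, beside 0.171 over all genes, and it was within 0.5 in 57 of 78 and 28 of 36. DDB2 clone 2 was the higher of the 2 in 40 of the 78 higher genes and in 17 of the 36 lower genes. The widest split was that of ANKRD1, a cardiac ankyrin repeat protein and a known target of YAP, which read 7.23 and 5.23 in DDB2 clones 2 and 3, against 3.26 in DDB2 clone 1 and 4.15 and 4.23 in vector clones 1 and 3.

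The position of DDB2 clone 1 was then compared with the vector clones. In the higher genes DDB2 clone 1 lay below both vector clones in 41, between them in 28 and above both in 9, and its median difference from the vector mean was -0.37. In the lower genes it lay above both vector clones in 19, between them in 10 and below both in 7, with a median difference of 0.45. The clone nearest to DDB2 clones 2 and 3 was vector clone 1 in 55 of the 78 higher genes, vector clone 3 in 14 and DDB2 clone 1 in 9. In the lower genes vector clone 1 was nearest in 15, vector clone 3 in 14 and DDB2 clone 1 in 7. DDB2 clone 1 was the furthest from DDB2 clones 2 and 3 in 41 of the 78 higher and 19 of the 36 lower genes. Vector clone 3 was the furthest in 34 and 11, and vector clone 1 in 3 and 6. The same arrays chose these genes, and the positions were not counted over all genes. Nothing is therefore read from these counts.

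**Figure D3:**
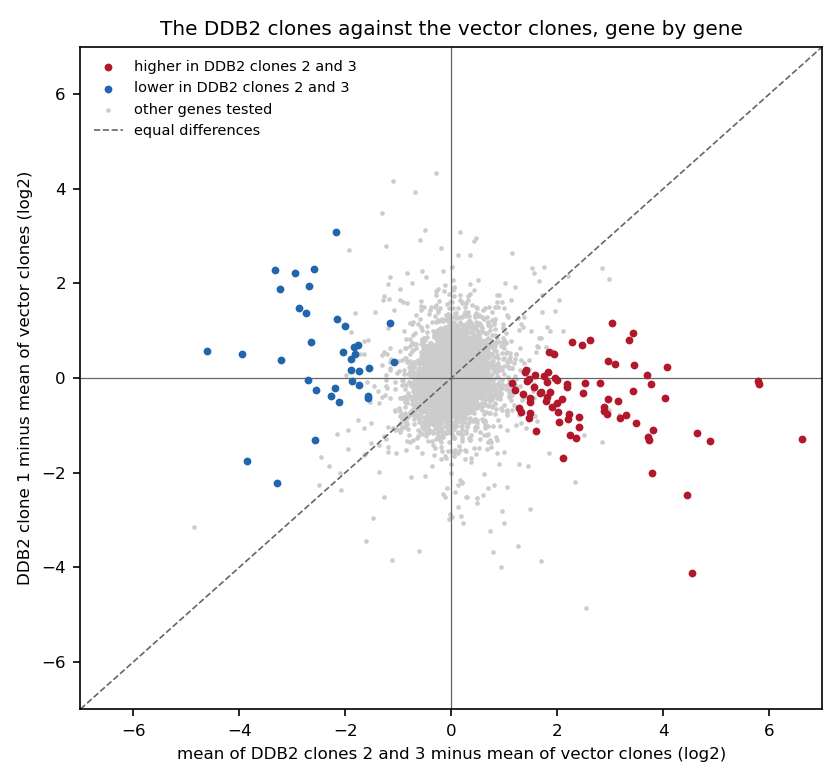
Difference of DDB2 clone 1 from the vector mean (vertical axis, log2) against the difference of the mean of DDB2 clones 2 and 3 from the vector mean (horizontal axis, log2) for 15396 genes, with 78 higher genes in red and 36 lower genes in blue. On the dashed line DDB2 clone 1 would differ from the vector mean as much as the mean of DDB2 clones 2 and 3. The rule of the gap keeps the counted genes off this line, so that their distance from it is not a result. On the vertical axis their median was -0.37 for the higher and 0.45 for the lower genes.

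The extremes of this comparison were MMP1 and RARB. MMP1, the interstitial collagenase, read 12.46 and 11.76 in DDB2 clones 2 and 3, against 3.45 in DDB2 clone 1 and 8.84 and 6.30 in vector clones 1 and 3. RARB, a retinoic acid receptor, read 3.75 and 3.79 in DDB2 clones 2 and 3, against 9.02 in DDB2 clone 1 and 5.53 and 6.34 in vector clones 1 and 3. For both genes the vector clones were intermediate and the DDB2 clones occupied the 2 ends. The opposite case was LRP1B, a very large receptor of the LDL receptor family, which read 2.90 and 2.86 in DDB2 clones 2 and 3, 3.95 in DDB2 clone 1, and 5.73 and 6.62 in vector clones 1 and 3, so that all DDB2 clones were below the vector clones.

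The genes were next grouped by what they are known to do. The 8 groups, which hold 60 of the 114 genes, and the genes named in them beyond the 14 largest gaps were chosen after their values had been seen, so that the counts describe the selection and are not set against a background.

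The group with the most even split was that of muscle and of the junction of nerve and muscle, with 6 higher and 5 lower genes. SLN encodes sarcolipin, a small inhibitor of the calcium pump of the sarcoplasmic reticulum, and read 10.80 and 10.39 in DDB2 clones 2 and 3, against 4.66 in DDB2 clone 1 and 4.93 and 4.64 in vector clones 1 and 3. ASB5, an ankyrin repeat and SOCS box protein found in muscle, read 11.95 and 11.60, against 3.87 in DDB2 clone 1 and 6.32 and 3.98 in vector clones 1 and 3. The ratio of the means was 57.8 for SLN and 132 for ASB5, the widest difference of all counted genes. MYH15, a myosin heavy chain, read 8.73 and 8.01 in DDB2 clones 2 and 3 and between 4.04 and 4.55 in the other clones.

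TRIM55, a ring finger protein of the sarcomere, read 8.28 and 7.58 in DDB2 clones 2 and 3 and between 4.02 and 4.28 in the other clones. MUSK, the receptor kinase that organizes the neuromuscular junction, read 8.12 and 8.50, against 4.69 in DDB2 clone 1 and 6.64 and 3.69 in vector clones 1 and 3. Other muscle genes were on the opposite side. AKAP6, an anchor of protein kinase A in heart and skeletal muscle, read 4.24 and 4.77 in DDB2 clones 2 and 3, against 8.10 in DDB2 clone 1 and 7.67 and 7.79 in vector clones 1 and 3. UTRN, the dystrophin relative utrophin, read 3.70 and 3.71 and between 5.54 and 6.42 in the other clones, whereas DMD, dystrophin itself, did not reach the gap, with 3.48 and 3.13 in DDB2 clones 2 and 3, 7.32 in DDB2 clone 1, and 5.46 and 3.599 in vector clones 1 and 3.

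MYL9, a regulatory light chain of smooth muscle myosin, read 7.63 and 7.58 in DDB2 clones 2 and 3, against 9.92 in DDB2 clone 1 and 8.75 and 10.10 in vector clones 1 and 3. The Popeye proteins, which bind cyclic AMP at the membrane of striated muscle, were split within the family. POPDC1 read 6.36 and 5.30 in DDB2 clones 2 and 3 and 7.42 to 8.12 in the other clones, and its chromosomal neighbour POPDC3 read 5.64 and 5.56 and 6.75 to 7.43. The third member, POPDC2, was near the median of the table in every clone, at 4.66 and 4.60 in DDB2 clones 2 and 3 and 4.64 to 4.77 in the other clones.

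Of 13 genes for secreted proteins, matrix and proteases, 8 were higher and 5 were lower. NOG, which encodes the BMP antagonist noggin, read 8.73 and 8.40 in DDB2 clones 2 and 3, against 4.11 in DDB2 clone 1 and 4.54 and 4.51 in vector clones 1 and 3. STC1, the secreted glycoprotein stanniocalcin 1, read 10.87 and 10.43, against 4.44 in DDB2 clone 1 and 7.37 and 4.16 in vector clones 1 and 3. STC2 overlapped, at 7.46 and 6.23 in DDB2 clones 2 and 3 and 5.90 to 6.97 in the other clones. NID1, nidogen 1 of the basement membrane, read 8.59 and 8.98 in DDB2 clones 2 and 3, against 7.50 in DDB2 clone 1 and 7.04 and 6.85 in vector clones 1 and 3.

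On the lower side, WIF1, a secreted inhibitor of Wnt ligands, read 3.92 and 4.01 in DDB2 clones 2 and 3, against 7.05 in DDB2 clone 1 and 5.84 and 6.09 in vector clones 1 and 3. POSTN, the matrix protein periostin, read 5.70 and 5.23, against 10.64 in DDB2 clone 1 and 9.94 and 6.90 in vector clones 1 and 3. HGF, the ligand of the MET receptor, read 7.35 and 7.39, against 9.69 in DDB2 clone 1 and 8.57 and 8.48 in vector clones 1 and 3. Proteases were found on both sides, since ADAMTS1, a metalloprotease that cleaves matrix proteoglycans, read 5.21 and 4.76 in DDB2 clones 2 and 3, against 9.11 in DDB2 clone 1 and 6.99 and 8.48 in vector clones 1 and 3.

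Of 6 genes for immune surface proteins and receptors, 5 were higher and 1 was lower. MRC1, the mannose receptor of macrophages, read 8.43 and 8.42 in DDB2 clones 2 and 3, against 3.52 in DDB2 clone 1 and 5.87 and 3.35 in vector clones 1 and 3. CD47, a ligand that inhibits engulfment by macrophages, read 9.32 and 9.19, against 7.30 in DDB2 clone 1 and 7.96 and 6.64 in vector clones 1 and 3. The exception was CCR1, a chemokine receptor of leukocytes, which read 3.82 and 3.30 in DDB2 clones 2 and 3, against 8.02 in DDB2 clone 1 and 7.19 and 7.82 in vector clones 1 and 3, a ratio of 17.3, higher in the other clones. PTPRC, the pan-leukocyte antigen CD45, stayed between 2.32 and 2.41 on all arrays, 3 of the 11 leukocyte markers with a symbol of their own were above 4.48 on at least 2 arrays (among them CD68, at 6.12 to 7.33), and the summed linear level of the list was 232 and 323 in DDB2 clones 2 and 3, against 226 in DDB2 clone 1 and 264 and 318 in vector clones 1 and 3.

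Of 7 channels, pumps and transporters, 6 were higher. KCNJ16, an inward rectifier potassium channel, read 8.74 and 9.14 in DDB2 clones 2 and 3, against 3.12 in DDB2 clone 1 and 5.54 and 3.05 in vector clones 1 and 3. ABCC2, an organic anion pump also known as MRP2 that has been linked to platinum efflux, read 8.22 and 8.76, against 4.86 in DDB2 clone 1 and 5.92 and 3.67 in vector clones 1 and 3. The plasma membrane calcium pumps were on opposite sides. ATP2B4 read 8.61 and 9.28 in DDB2 clones 2 and 3, against 6.23 in DDB2 clone 1 and 7.11 and 7.59 in vector clones 1 and 3.

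ATP2B1, the pump of the same family that most tissues use, read 4.60 and 4.40 in DDB2 clones 2 and 3, against 9.60 in DDB2 clone 1 and 8.51 and 6.94 in vector clones 1 and 3. The ratio of the means was 14.5, higher in the other clones. The remaining pumps, ATP2B2 and ATP2B3, which are used mostly by excitable cells, stayed between 5.02 and 5.34 on all arrays.

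Of 6 kinases, growth factor receptors and their regulators, 4 were higher. EGFR, the epidermal growth factor receptor, read 8.43 and 8.07 in DDB2 clones 2 and 3, against 4.80 in DDB2 clone 1 and 6.44 and 5.58 in vector clones 1 and 3. ERBB3, a partner receptor of the same family, lay on the same side without reaching the gap, at 6.87 and 7.45 in DDB2 clones 2 and 3, 4.96 in DDB2 clone 1, and 5.78 and 6.11 in vector clones 1 and 3. PLK2, a polo-like kinase and a target of p53, read 9.39 and 9.66, against 6.96 in DDB2 clone 1 and 6.60 and 5.72 in vector clones 1 and 3. The other polo-like kinases PLK1, PLK3 and PLK4 overlapped between DDB2 clones 2 and 3 and the other clones.

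SPRY2 and DUSP6, which are induced by ERK signalling and restrain it, were both lower. SPRY2, a Sprouty protein, read 5.35 and 5.21 in DDB2 clones 2 and 3, against 7.95 in DDB2 clone 1 and 7.42 and 8.56 in vector clones 1 and 3. DUSP6, an ERK phosphatase, read 3.45 and 3.65, against 5.66 in DDB2 clone 1 and 5.93 and 8.89 in vector clones 1 and 3. No other gene of the 18 on the list of ERK feedback and target genes reached the gap, and the median difference of the list was -0.06. SPRY1 and SPRY4 overlapped, at 9.96 and 9.72 and at 6.67 and 6.53 in DDB2 clones 2 and 3 and at 9.64 to 10.08 and 6.56 to 7.14 in the other clones. SOCS2, a feedback inhibitor of growth hormone signalling, read 7.25 and 7.17 in DDB2 clones 2 and 3 and 4.99 to 5.81 in the other clones, and it was the only one of 8 SOCS family genes with a value, CISH included, that reached the gap.

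Of 8 transcription and RNA-binding factors, 5 were higher and 3 were lower. JUN, a component of the AP-1 factor, read 9.21 and 8.85 in DDB2 clones 2 and 3, against 6.43 in DDB2 clone 1 and 6.16 and 5.97 in vector clones 1 and 3. JUNB and JUND did not separate the clones, with 7.26 and 7.004 and with 6.94 and 7.05 in DDB2 clones 2 and 3 and with 6.96 to 7.54 and 6.90 to 7.50 in the other clones. HEY1, a repressor induced by Notch, read 7.001 and 7.20 in DDB2 clones 2 and 3, against 4.57 in DDB2 clone 1 and 4.93 and 5.10 in vector clones 1 and 3. Neither HEY2 nor HEYL reached the gap.

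RARA and RARG, the other retinoic acid receptors, differed little over the arrays, at 6.04 and 5.95 and at 6.41 and 6.44 in DDB2 clones 2 and 3 and at 6.03 to 6.16 and 6.11 to 6.74 in the other clones, in contrast to RARB. ZNF462, a zinc finger protein, read 3.96 and 4.03 in DDB2 clones 2 and 3 and 5.81 to 6.58 in the other clones. PMAIP1, the BH3-only death protein NOXA and likewise a p53 target, read 3.64 and 3.84 and 5.73 to 6.05, while PLK2 was on the higher side.

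Ubiquitin enzymes and cilium genes again included relatives on opposite sides. LONRF2, a LON and ring finger protein, read 7.87 and 8.02 in DDB2 clones 2 and 3, against 3.92 in DDB2 clone 1 and 5.11 and 4.42 in vector clones 1 and 3. Its relative LONRF1 read 4.88 and 3.72, against 5.91 in DDB2 clone 1 and 6.64 and 6.19 in vector clones 1 and 3. IFT57 and IFT74 belong to the same intraflagellar transport complex, IFT-B. IFT57 read 8.43 and 8.81 in DDB2 clones 2 and 3 and 6.24 to 7.10 in the other clones, whereas IFT74 read 4.16 and 4.86 and 6.13 to 6.65, and none of the other 11 IFT-B genes with a value reached the gap. CFAP300, a factor for the assembly of ciliary dynein, read 3.01 and 3.02 in DDB2 clones 2 and 3, against 7.39 in DDB2 clone 1 and 6.41 and 5.39 in vector clones 1 and 3.

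Several genes of the actin cytoskeleton and the membrane were counted together with relatives or partners. TMSB4X, thymosin beta 4, which sequesters actin monomers, read 6.99 and 6.21 in DDB2 clones 2 and 3, against 11.24 in DDB2 clone 1 and 9.60 and 8.98 in vector clones 1 and 3. Its pseudogenes TMSB4XP8 and TMSB4XP4 followed, and since they are close copies of TMSB4X, the 3 values are not independent and cannot be assigned to one locus. TMSB10, a related thymosin, lay on the other side, at 11.32 and 11.69 in DDB2 clones 2 and 3, against 7.73 in DDB2 clone 1 and 10.70 and 10.38 in vector clones 1 and 3. S100A10 and AHNAK, which form a complex with annexin A2 at the membrane, were both higher, S100A10 at 7.24 and 7.34 in DDB2 clones 2 and 3 and 5.08 to 5.61 in the other clones, and AHNAK at 8.76 and 8.95 and 6.94 to 7.73. ANXA2, annexin A2 itself, read 11.07 and 10.85, against 10.14 in DDB2 clone 1 and 10.05 and 10.39 in vector clones 1 and 3, a separation of 0.46 that did not reach the gap.

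Of the remaining genes with the widest gaps, GARIN2, a Golgi protein of the testis, read 7.14 and 7.54 in DDB2 clones 2 and 3 and 3.62 to 3.94 in the other clones. ELMOD1, a GTPase-activating protein, read 8.48 and 7.91 and 4.13 to 4.98, and LYST, the lysosomal trafficking regulator, read 7.73 and 7.26 and 4.40 to 4.70. Downward, NLRP2, a NOD-like receptor, read 3.82 and 4.04 in DDB2 clones 2 and 3 and 6.01 to 6.94 in the other clones. CAVIN2, a coat protein of caveolae, had a large mean difference of 5.27 but a gap of only 2.24, because vector clone 1 was high: it read 10.45 and 10.35 in DDB2 clones 2 and 3, 3.48 in DDB2 clone 1, and 8.11 and 3.80 in vector clones 1 and 3.

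The higher genes often lay next to each other. With the tested genes placed in RefSeq order, 33 of the 78 higher genes (42.3%) had another higher gene among the 5 tested genes on either side, whereas 622 of all 15224 genes placed (4.09%) had a higher gene so close. For the lower genes the numbers were 4 of 36 (11.1%) and 344 of 15224 (2.26%). These shares are a description with no test, and whether neighbouring transcript clusters share probes is not given in the sources used here. The neighbours formed 14 loci of higher genes and 2 loci of lower genes, and 4 of them held more than 2 counted genes.

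The longest run was on chromosome 3, where CD47, IFT57, HHLA2 and MYH15 followed each other with no other tested gene between them. Their differences from the other clones were 1.96, 2.03, 5.82 and 3.997. Of the flanking genes, BBX was above the other clones in both DDB2 clones 2 and 3 by a gap of 0.23, with a difference of 0.78, and CIP2A overlapped between the clones. On chromosome 4, GPM6A, SPATA4 and ASB5 were higher by 1.48, 2.00 and 7.05. WDR17, which lies between GPM6A and SPATA4, was higher in both DDB2 clones 2 and 3 without reaching the gap, at 7.40 and 8.43 against 6.59 in DDB2 clone 1 and 7.03 and 6.57 in vector clones 1 and 3. SPCS3, on the other flank of ASB5, had a gap of 0.75.

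On chromosome 18, L3MBTL4, RNU5F-3P and ARHGAP28 were adjacent and higher by 3.10, 2.84 and 4.12, while LRRC30 on one flank differed by -0.05. On the other flank TMEM200C and EPB41L3 were above the other clones in both DDB2 clones 2 and 3, by gaps of 0.28 and 0.41. On chromosome 12, SOCS2-AS1 and SOCS2 were higher by 1.78 and 1.73 and PLXNC1, a semaphorin receptor, by 1.19, with CRADD between them at 0.37. SOCS2-AS1 is antisense to SOCS2, and the sources used here do not show whether their probes are separate. ELMOD1 and SLN were adjacent on chromosome 11, as were STC1 and ADAM28 on chromosome 8, NABP1 and CAVIN2 on chromosome 2 and SVEP1 and MUSK on chromosome 9.

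At the MMP locus on chromosome 11, vector clone 1 came close to DDB2 clones 2 and 3. MMP10 read 12.96 and 11.95 in DDB2 clones 2 and 3, against 8.81 in DDB2 clone 1 and 11.70 and 7.27 in vector clones 1 and 3. MMP3, stromelysin 1, read 12.49 and 11.83, against 4.75 in DDB2 clone 1 and 11.34 and 7.87 in vector clones 1 and 3. DDB2 clones 2 and 3 were the highest for both, but vector clone 1 came within 0.25 and 0.48 of them, so that MMP1 and the pseudogene WTAPP1 alone reached the gap there.

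Next to JUN and FGGY, which were higher by 2.85 and 2.59 on chromosome 1, NFIA was lower, at 4.33 and 4.32 in DDB2 clones 2 and 3, against 7.27 in DDB2 clone 1 and 5.90 and 5.32 in vector clones 1 and 3, and it missed the gap by a small margin. Neighbours can therefore lie on opposite sides. IFT74, which was lower, likewise had LINGO2 and MIR873, which were higher, among its neighbours on chromosome 9. The 2 loci of lower genes were DUSP6 with ATP2B1 on chromosome 12 and POPDC1 with POPDC3 on chromosome 6. On chromosome 6, 0 of 649 tested genes were higher and 4 (0.616%) were lower, and on chromosome 1, 14 of 1500 (0.933%) were higher and 1 (0.0667%) was lower, beside 0.507% and 0.234% of all genes. These chromosomes were named after their values had been seen. The largest shares on both sides were those of chromosome 18, with 3 of 194 genes higher (1.55%) and 2 lower (1.03%). Copy number was not measured, and its part in these runs was not tested.

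**Figure D4:**
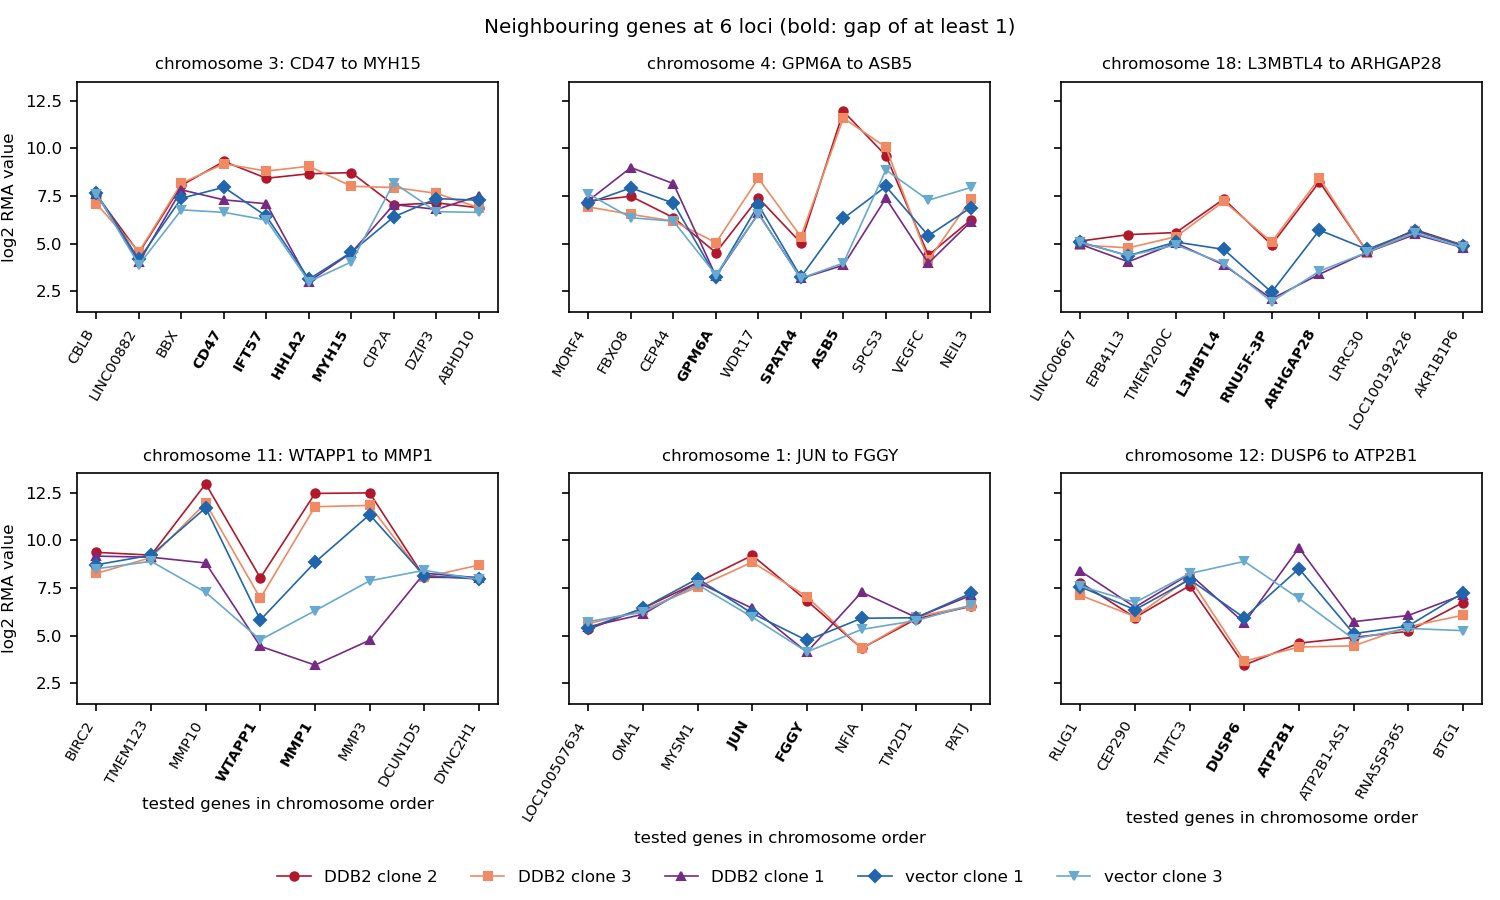
Log2 RMA values (vertical axis) of neighbouring tested genes in chromosome order (horizontal axis) at 6 loci, with 1 line per clone and counted genes in bold. At CD47 to MYH15 the lines of DDB2 clones 2 and 3 lie above those of the other clones by 0.23 at BBX and by more than 1 at the 4 counted genes, and they overlap with them at CIP2A, and at DUSP6 to ATP2B1 they run below them for these 2 genes.

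MIR873, the one miRNA gene among the higher genes, came next to LINGO2 in the order of tested genes. LINGO2, a leucine-rich repeat protein of neurons, was higher as well. Whether the 2 transcripts overlap was not tested, so that they may not be independent. The transcript cluster of MIR873 read 4.78 and 4.82 in DDB2 clones 2 and 3, against 2.29 in DDB2 clone 1 and 3.30 and 2.50 in vector clones 1 and 3. LINGO2 read 7.08 and 7.03, against 3.36 in DDB2 clone 1 and 5.31 and 2.93 in vector clones 1 and 3, so that vector clone 1 was the nearest of the other clones for both. The array reads the gene and not the mature strands, which are shown from RefSeq on GRCh38.p14 with the seed (bases 2 to 8) in capitals, at chr9:28888925-28888945 for the 5p strand and chr9:28888889-28888910 for the 3p strand, both on the minus strand.
hsa-miR-873-5p: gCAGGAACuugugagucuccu
hsa-miR-873-3p: gGAGACUGaugaguucccggga
The seeds of the 2 strands differ. Total RNA was labelled for these arrays, and a level of the mature miRNA cannot be read from them.

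Lists of pathways and cell types held 17 of these genes. Of 685 genes with a value on 46 lists, 10 were higher (1.46%) and 7 were lower (1.02%), beside 0.507% and 0.234% of all genes, and 32 lists held none. The lists were chosen with earlier results of these data known, and nothing is read from these shares. No list held more than 2 in 1 direction. These were DUSP6 and SPRY2 on the list of ERK feedback genes, and GSTM3 and ABCC2 among 21 NRF2 and glutathione genes, where GSTM3, a glutathione transferase, read 5.93 and 6.34 in DDB2 clones 2 and 3 and 3.83 to 4.78 in the other clones. None of 9 genes of the CUL4-DDB ligase and of lesion recognition and none of 21 genes of nucleotide excision repair reached the gap, with median differences of 0.08 and -0.04. The same held for 23 genes of TGF-beta ligands, receptors and SMADs (median 0.06), 10 NEDD4 family ligases (-0.03) and 21 Polycomb and histone methyltransferase genes (0.02). The lowest difference was the same value, -1.09, on the TGF-beta list and on the NEDD4 family list, and it may come from 1 gene on both. Of the 10 ligases, 2 were below the other clones in both DDB2 clones 2 and 3 and 0 were above, beside 10.4% and 8.22% of all genes.

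The medians of 3 lists lay beyond 0.3, although none of their genes reached the gap. MHC class I and antigen presentation genes had a median difference of 0.41 over 13 genes. In 6 of these genes DDB2 clones 2 and 3 were both above the other clones, against 8.22% of all genes. After subtraction of each gene's mean, the medians were 0.18 and 0.12 in DDB2 clones 2 and 3. They were -0.19 in DDB2 clone 1 and 0.03 and -0.02 in vector clones 1 and 3, so that DDB2 clone 1 was the lowest. HLA-B read 8.89 and 8.85 in DDB2 clones 2 and 3, against 7.79 in DDB2 clone 1 and 8.45 and 7.40 in vector clones 1 and 3, and HLA-C read 9.25 and 9.28, against 8.41, 9.06 and 8.34 in the same clones. HLA class I genes are close relatives, and their probes may not be separate.

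The other 2 lists did not set DDB2 clones 2 and 3 apart from the rest, since these clones differed between themselves. Unfolded protein and amino acid response genes (18 genes, median difference of -0.34) had medians, after subtraction of each gene's mean, of 0.45 and -0.85 in DDB2 clones 2 and 3, against 0.51 in DDB2 clone 1 and 0.68 and -0.80 in vector clones 1 and 3. ASNS, asparagine synthetase, read 9.17 and 6.92 in DDB2 clones 2 and 3, 9.42 in DDB2 clone 1, and 9.99 and 7.14 in vector clones 1 and 3. DDB2 clone 3 and vector clone 3 were thus low together. Mitosis genes (21 genes, median difference of -0.37) had medians of -0.63 and 0.24 in DDB2 clones 2 and 3, against -0.07 in DDB2 clone 1 and 0.01 and 0.53 in vector clones 1 and 3, so that DDB2 clone 2 was the lowest and vector clone 3 the highest. The part of growth state in the differences between the clones was not tested.

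**Figure D5:**
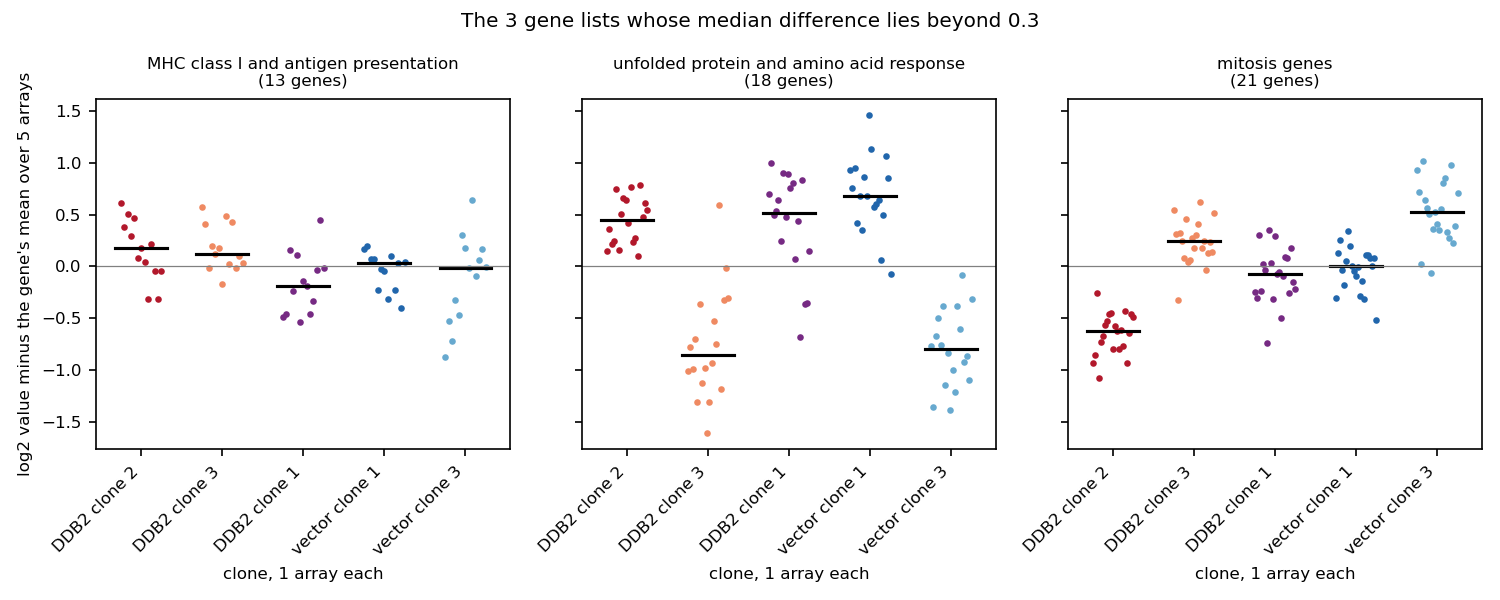
Log2 value minus the gene's mean over the 5 arrays (vertical axis) for each gene of 3 lists in each clone (horizontal axis), with the median of the list as a black bar. DDB2 clones 2 and 3 lie on the same side for MHC class I genes (0.18 and 0.12) and on opposite sides for unfolded protein response genes (0.45 and -0.85) and mitosis genes (-0.63 and 0.24).

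Cell type markers were examined on all arrays. Of 13 ovarian carcinoma markers, 10 were above 4.48 on at least 2 arrays. KRT18, a keratin of simple epithelia, read 8.27 and 8.29 in DDB2 clones 2 and 3, against 6.75 in DDB2 clone 1 and 8.14 and 8.67 in vector clones 1 and 3, while the lineage factor PAX8 stayed between 5.16 and 5.28 and WT1 between 4.33 and 4.57, near the median of the table. The summed linear level of the list was 834 and 848 in DDB2 clones 2 and 3, against 584 in DDB2 clone 1 and 916 and 915 in vector clones 1 and 3. Fibroblast markers summed to 272 and 320 in DDB2 clones 2 and 3, against 1909 in DDB2 clone 1 and 1223 and 407 in vector clones 1 and 3. POSTN made up most of the difference. The matrix proteoglycans DCN and LUM followed the same order of the other clones, DCN at 2.50 and 2.57 in DDB2 clones 2 and 3, against 6.02 in DDB2 clone 1 and 4.01 and 2.91 in vector clones 1 and 3, whereas COL1A1 stayed between 5.61 and 5.85 and FAP between 2.10 and 2.22. The part of other cells in the level of POSTN was not tested. Endothelial markers summed to 217 and 226 in DDB2 clones 2 and 3 and to 211 to 229 in the other clones. Of these 10 markers, 5 were above 4.48 on at least 2 arrays, with CLDN5 the highest at 5.87 to 6.03. PECAM1 and EMCN were at the low end. The level of 4.48 is the median of the table, and to exceed it does not by itself show that a marker is expressed.

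The comparison of the study's own labels, 3 DDB2 clones against 2 vector clones, was fitted with limma and shares all arrays with the split, so that it lends it no independent support. With a change of more than 2-fold and P below 0.05 before adjustment as the criterion, 56 genes were called (0.364%), 26 higher (0.169%) and 30 lower (0.195%) in DDB2 clones. Of the 78 higher genes, 5 were called, namely PLK2, KIAA0825, BMERB1, IFT57 and NID1, and of the 36 lower genes, 4 were called, namely DUSP6, EEIG2, LRP1B and POPDC3. The log2 fold change was 2.51 for PLK2 (standard error 0.925, unadjusted P = 0.0450, limma adjusted p = 0.999) and -3.16 for DUSP6 (standard error 1.14, unadjusted P = 0.0423, limma adjusted p = 0.999). HHLA2, with the largest gap, had a log2 fold change of 3.84 with a standard error of 2.01 (unadjusted P = 0.118 from limma), since DDB2 clone 1 read like the vector clones. After adjustment in limma 0 genes (0%) were below 0.05, the smallest adjusted p being 0.703, while 449 genes had P below 0.05 before it. The count of 56 became 214 without DDB2 clone 1 and 219 without vector clone 1. Nothing is read from these calls about the counted genes, because the same arrays chose them.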

How the data were processed

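Total RNA of 5 CP70 clones, 1 array per clone, was labelled as sense-strand DNA and hybridised to the GeneChip Human Transcriptome Array 2.0. The deposited values were made by the authors with background correction, normalization and RMA summary in the Affymetrix console, and they are log2 values, a scale read from their range since it is not named. Arrays have no read depth, and their number limits the precision. The tool versions of that processing and the genome build are not given in the sources used here.

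Of 70523 rows, 2995 control rows were left out, and 34141 of 67528 transcript clusters were kept, those above 4.48 (the table's median) on 2 or more arrays. Genes were taken from the platform table supplied with the data, where 23781 transcript clusters carry 1 symbol, 1543 several and 42204 none. Symbols were matched to RefSeq, 21497 by gene ID and 1974 by symbol, and 310 stayed unmatched. Of several transcript clusters of a gene, the one with the highest mean was used. All columns of the table were mapped to samples.

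The gap between DDB2 clones 2 and 3 and the other clones was computed per gene, with a threshold of 1 and no test. DDB2 clones were compared with vector clones in limma 3.58.1 (R 4.3.3), after the procedure had been tested on simulated data. The Benjamini-Hochberg adjustment was made over all transcript clusters kept, from which the genes were then taken. Other steps used Python 3.11.15, numpy 2.4.6, pandas 2.3.3 and matplotlib 3.10.9. Promoter and miRNA sequences are from RefSeq on GRCh38.p14.

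The split, the members and the lists were chosen with earlier results of these data known. The genes named were DDB2, the 14 with the largest gap in each direction, up to 4 per list that reached the gap, the 2 nearest to the threshold on each side, and their relatives and neighbours. Other genes were named after their values had been seen. Each group is made of single clones, so that P values measure the spread between clones. Alternatives covered the filter, the normalization, the choice of transcript cluster, the size of the gap, the variance model, the replicate block and leaving out each array.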

Additional observations from a re-analysis of the deposited data

How the results depend on the processing

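The counts of 78 higher and 36 lower genes stayed within 1.5 times under no filter, filters at the 25th and 75th percentile or on the mean, quantile normalization, median centring, and the mean of a gene's transcript clusters (66 to 80 higher and 25 to 37 lower). They were 152 and 61 when transcript clusters were counted in place of genes. They moved with the definition of the gap, to 179 and 85 at 0.5, 43 and 18 at 1.5, 1266 and 1594 at any separation, and 219 and 129 for a difference of means of at least 1. Leaving out 1 array gave 87 to 125 higher and 45 to 75 lower genes, a rise that the rule of the gap itself favours. The limma count of 56 became 34 with the filter at the 75th percentile, 120 over all transcript clusters, 22 with equal variances and no shrinkage, and 43 to 219 with 1 array left out, and no setting gave an adjusted call. Clones with the same replicate number in their titles had correlations of deviations of 0.13 and 0.34. With 2 pairs only, whether these numbers pair the clones was not tested. A replicate block by title number gave 62 genes and one by source-name number gave 91, with correlations of 0.13 and -0.25. Apart from what the rule of the gap fixes, the cause of these changes was not tested. Of the 44 genes followed through the settings, none changed the sign of its difference of means, ANKRD1 kept a gap of 1 in 7 of 9 settings and RPS20P22 in 9 of 11, the others kept it in all settings that measured them, and the difference of means of ELMOD1 moved to 2.42 (against 3.55) with the mean of its transcript clusters. Other genes named were not followed singly. With 1 array per clone, no error within a clone is known.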
